A study of Mus musculus with 12 samples.

Results

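Axon guidance ligands and receptors were followed in mouse angiosarcoma xenografts as a set of 66 protein-coding genes, taken by their names from a table of 54232 genes. The naming rule uses no measured value, but the set was picked with earlier results of these data known. The names take in 34 ligands (semaphorins, ephrins, Slits and netrins) and 32 receptors (plexins, Eph receptors, Robos, the Unc5 netrin receptors and Dcc). Of these 66 genes, 51 had enough counts to be tested, among 12897 genes tested in all. The tested genes were 17 of 20 semaphorins, 8 of 9 plexins, 10 of 14 Eph receptors, 5 of 8 ephrins, 3 of 3 Slits, 3 of 4 Robos, 2 of 3 netrins and 3 of 5 netrin receptors. A further 3 antisense transcripts are named after Plxna4 and are described beside that gene.

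The tumors were SVR xenografts. SVR is a single line of mouse endothelial cells made tumorigenic by an activated ras gene, labelled C57BL/6, and it was grown in nude mice, which have no thymus and few mature T cells. Once tumors had formed, mice were gavaged daily with the drug vehicle (control), with trametinib at 1 mg/kg, an inhibitor of the MAPK kinase MEK, with cediranib at 3 mg/kg, an inhibitor of VEGF receptors, or with both drugs at these doses (combination). Each of the 4 groups holds 3 tumors, and the labels do not say whether these came from separate mice, so that p-values measure the spread between these tumors. The study ran 1 experiment with a shared day of harvest and 1 in which tumors were taken at ulceration or a size limit. The labels do not say which gave these tumors, so it is not known whether time on treatment was equal between groups.

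Guidance cues are secreted or membrane-bound ligands that attract or repel growing axons, and the same cues steer endothelial cells in sprouting vessels. Semaphorins act mainly through plexins, with neuropilins as co-receptors for most of class 3. Ephrins on one cell bind Eph receptor tyrosine kinases on its neighbour, Slits bind Robos, and netrins bind Dcc and Unc5 receptors. In vessels, ephrin-B2 marks arteries and EphB4 marks veins, Plexin-D1 is the endothelial receptor of Sema3E, and Robo4 and Unc5B are receptors enriched in endothelium.

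RNA was taken from whole tumors and enriched with exome probes, and tumor and host reads are both of mouse origin and were not separated. The libraries held 9478865 to 11666094 counts, and 0.133% to 0.196% of them fell on the 66 guidance genes. Levels are given as CPM, counts divided by the size of the library after scaling with TMM factors. A gene without counts may still be present at up to 0.251 to 0.349 CPM, which corresponds to 3 counts and covers counting error only. The 10 endothelial markers summed to 31.7 to 412 CPM, and 8 of them had enough counts to be tested. Tie1 and Cdh5 carried most of this sum, with 181 and 120 CPM of the 412 in control tumor 3. The 6 T cell markers summed to at most 1.73 CPM. The 9 markers of nerve and Schwann cells summed to 5.78 to 17.6 CPM. The 21 epidermal markers, keratins left out, summed to 99.9, 79.6 and 52.1 CPM in control tumors 1, 2 and 3 and to 44.8 to 68.2 CPM in the trametinib tumors. They summed to 288, 83.1 and 263 CPM in cediranib tumors 1, 2 and 3, and to 346 to 520 CPM in the combination tumors. The mean log2 level of the 16 tested markers was 1.75 in control tumor 1, 0.0647 and 0.0466 in the other controls and -0.852 to -0.61 in the trametinib tumors. For trametinib against control 15 of the 16 were lower (median log2 fold change -3.23), and 1 was called. Skeletal muscle and fibroblast markers varied between tumors of 1 group, from 5.66 to 16740 and from 1889 to 19880 CPM among the controls. In whole tumors, fewer cells of a type and less RNA per cell cannot be told apart.

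Levels of different genes were compared as mean CPM per kilobase of exon over the 3 tumors of a group. In the control tumors, the most abundant plexin was Plxnb2 (48.3 CPM per kilobase), a receptor of class 4 semaphorins, followed by Plxnd1 (25.2) and Plxna1 (20.1). Efna5, a GPI-anchored ephrin, led its family at 38.8 CPM per kilobase, and Epha2, a receptor of A-class ephrins, led the Eph receptors at 26.9. The leading members of the other families were Slit3 (16.8), Unc5b (10.7), Sema6d (9.57), Robo4 (0.717) and, among netrins, Ntn4 (1.29) ahead of Ntn1 (0.635). Robo4 was thus far below Slit3 and Unc5b. After trametinib the mean of Ntn1 (3.06 CPM per kilobase) exceeded that of Ntn4 (2.13). This order depends on trametinib tumor 3, where Ntn1 was at 34.3 CPM, against 12.4 and 10.9 CPM in tumors 1 and 2. Plxnb2 ranged from 241 to 403 CPM over the 12 tumors and Plxna1 from 148 to 216 CPM, and the smallest edgeR FDR over the 6 comparisons was 0.391 for Plxnb2 and 0.716 for Plxna1.

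**Figure D1:**
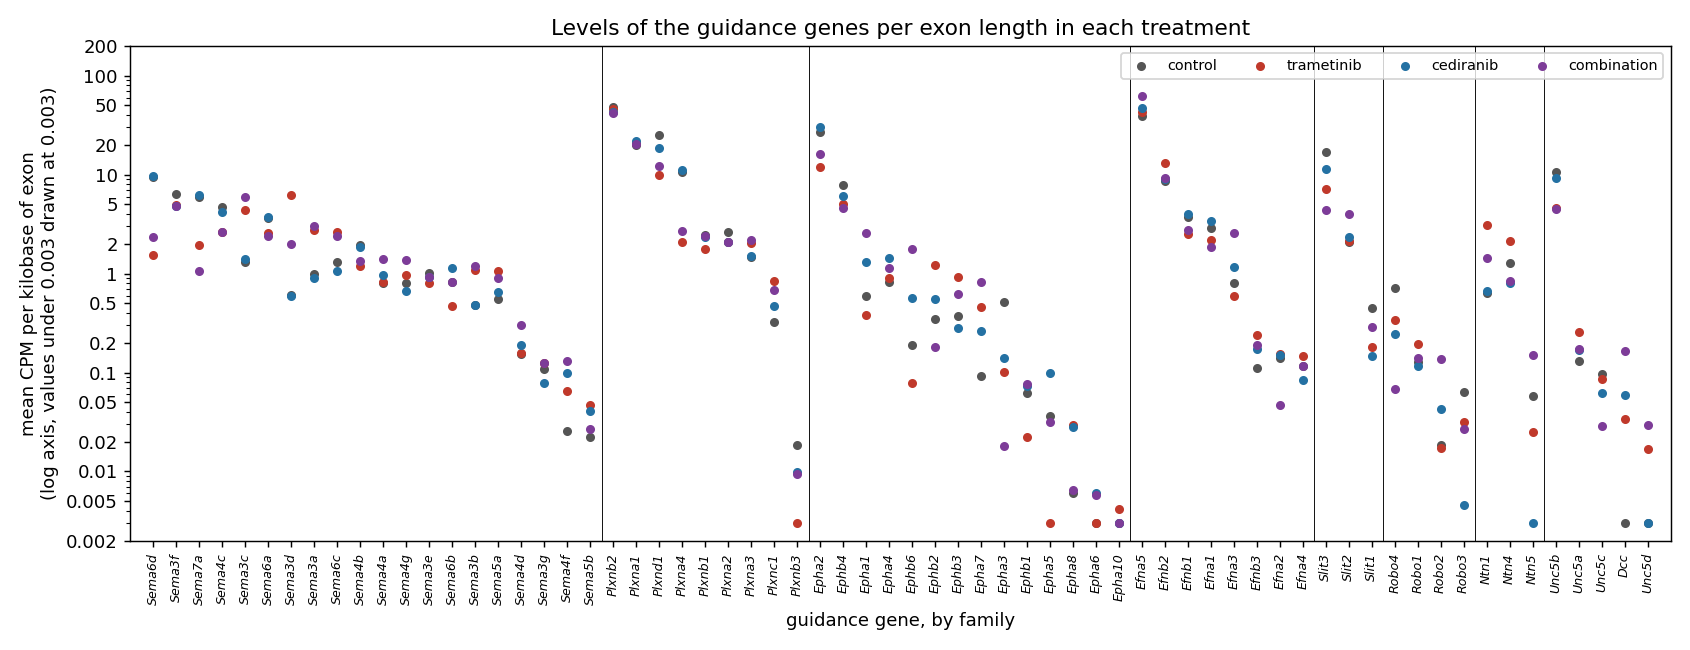
Mean CPM per kilobase of exon (log axis) of the 66 guidance genes, ordered by family and by mean level, with 1 point per treatment group. Values under 0.003 are drawn at 0.003. Levels run from 61.8 CPM per kilobase for Efna5 in the combination group to values at the bottom of the axis for Epha10, and the groups stand apart for Sema6d, Plxna4, Sema7a and Ephb6.

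Trametinib alone moved members of this set in both directions. Sema6d, a transmembrane semaphorin that binds A-class plexins, and Plxna4, a plexin of that class, fell to well under their control levels, whereas the secreted semaphorins Sema3c and Sema3d and the ligand netrin-1 (Ntn1) rose. A call required an FDR of 0.05 and a log2 fold change of 1.5 or more in either direction, and 5 of the 51 genes were called (9.8%), against 2.4% of all genes tested. The 3 higher calls compare with 0.977% of all genes, and the 2 lower calls with 1.43%. At the FDR alone 12 of the 51 passed (23.5%), 6 higher and 6 lower, against 6.12% of all genes. The median log2 fold change was -0.31 over the 51 genes and 0.01 over all genes tested.

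Sema6d was at 99.2, 105 and 99.0 CPM in the 3 control tumors, 16.3, 18.3 and 14.1 CPM after trametinib, 122, 95.2 and 90.2 CPM after cediranib, and 16, 16.3 and 42.8 CPM after the combination. All 6 tumors that received trametinib lay below all 6 that did not, with combination tumor 3 the highest of the 6. The log2 fold change for trametinib against control was -2.64 ± 0.33 (SE; edgeR FDR 0.000773), a 6.24-fold lower level. The gene lies at chr2:124089969-124667769 (GRCm38, plus strand) and shares no exon with another annotated gene. Leaving out any 1 tumor kept its calls against control, for trametinib between -2.73 and -2.55 and for the combination between -2.65 and -1.77.

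Plxna4 was at 148, 114 and 185 CPM in control tumors, 32.8, 40.5 and 14.0 CPM after trametinib, 241, 126 and 100 CPM after cediranib, and 64.0, 26.0 and 24.1 CPM after the combination. Here too the 6 tumors given trametinib did not overlap with the other 6. Its log2 fold change was -2.36 ± 0.48 for trametinib against control (edgeR FDR 0.0124). Plxna4 (chr6:32144268-32588192, minus strand) shares 110 exon bases with Plxna4os3, an antisense transcript on the opposite strand. Plxna4os3 was at 4.97 to 6.87 CPM in control, 0.582 to 0.999 CPM in trametinib, 4.21 to 10.1 CPM in cediranib and 0.454 to 4.14 CPM in combination tumors. No source used here states whether counting used strand, so reads of the pair cannot be told apart where they overlap. Plxna4os1 and Plxna4os2 had 1 and 4 counts in all 12 libraries together.

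Sema3c, a secreted class 3 semaphorin that signals through neuropilins and plexins, was at 9.54, 4.97 and 13.3 CPM in control tumors and at 34.1, 31.8 and 29.1 CPM after trametinib. It was at 10.4, 8.04 and 11.8 CPM after cediranib and at 26.1, 29.3 and 71.4 CPM after the combination. The 6 tumors given trametinib stood above the other 6, and the log2 fold change for trametinib against control was 1.77 ± 0.40 (edgeR FDR 0.0214). Its neighbour in the same class, Sema3a, the founding repellent of the family, was higher as well but just missed the minimum fold. Sema3a was at 10.6, 9.93 and 20.5 CPM in control, 47.8, 36.3 and 31.9 CPM after trametinib, 12.1, 14.6 and 10.5 CPM after cediranib and 45.9, 34.3 and 45.7 CPM after the combination. Its log2 fold change for trametinib against control was 1.499 ± 0.27, just under the minimum (edgeR FDR 0.00698).

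Sema3d and Ntn1 were higher after trametinib with a wide spread. Sema3d was at 4.68, 6.28 and 4.85 CPM in control and at 34.9, 109 and 17.8 CPM after trametinib (log2 fold change 3.35 ± 0.89, edgeR FDR 0.0453). After the combination Sema3d was at 9.49, 3.18 and 38.7 CPM, which overlaps with both controls and trametinib tumors. Ntn1 was at 4.17, 4.46 and 3.33 CPM in control and 12.4, 10.9 and 34.3 CPM after trametinib (log2 fold change 2.27 ± 0.48, edgeR FDR 0.0161), and at 7.98, 14.5 and 4.36 CPM after the combination. Neither gene passed for the combination against control (edgeR FDR 0.225 for Sema3d and 0.14 for Ntn1).

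Of these 5 calls, those of Sema6d and Plxna4 held when any 1 tumor was left out, and those of the 3 rising ligands did not. The call of Sema3c was lost without control tumor 1 or 2 or trametinib tumor 1 or 2 (log2 fold change 1.47 to 1.79, edgeR FDR 0.0525 to 0.069). That of Sema3d was lost without any 1 control tumor or without trametinib tumor 1 or 2, with an edgeR FDR of up to 0.152 and a log2 fold change of 2.32 without trametinib tumor 2. The Sema3d call was also lost with the replicate numbers of the labels as a block, and with the mean log2 level of epidermal markers in the model. Ntn1 lost its call without control tumor 2 or 3 or trametinib tumor 3 (edgeR FDR 0.0504, 0.0696 and 0.055). Its log2 fold change ran from 1.55 to 2.55 when single tumors were left out.

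**Figure D2:**
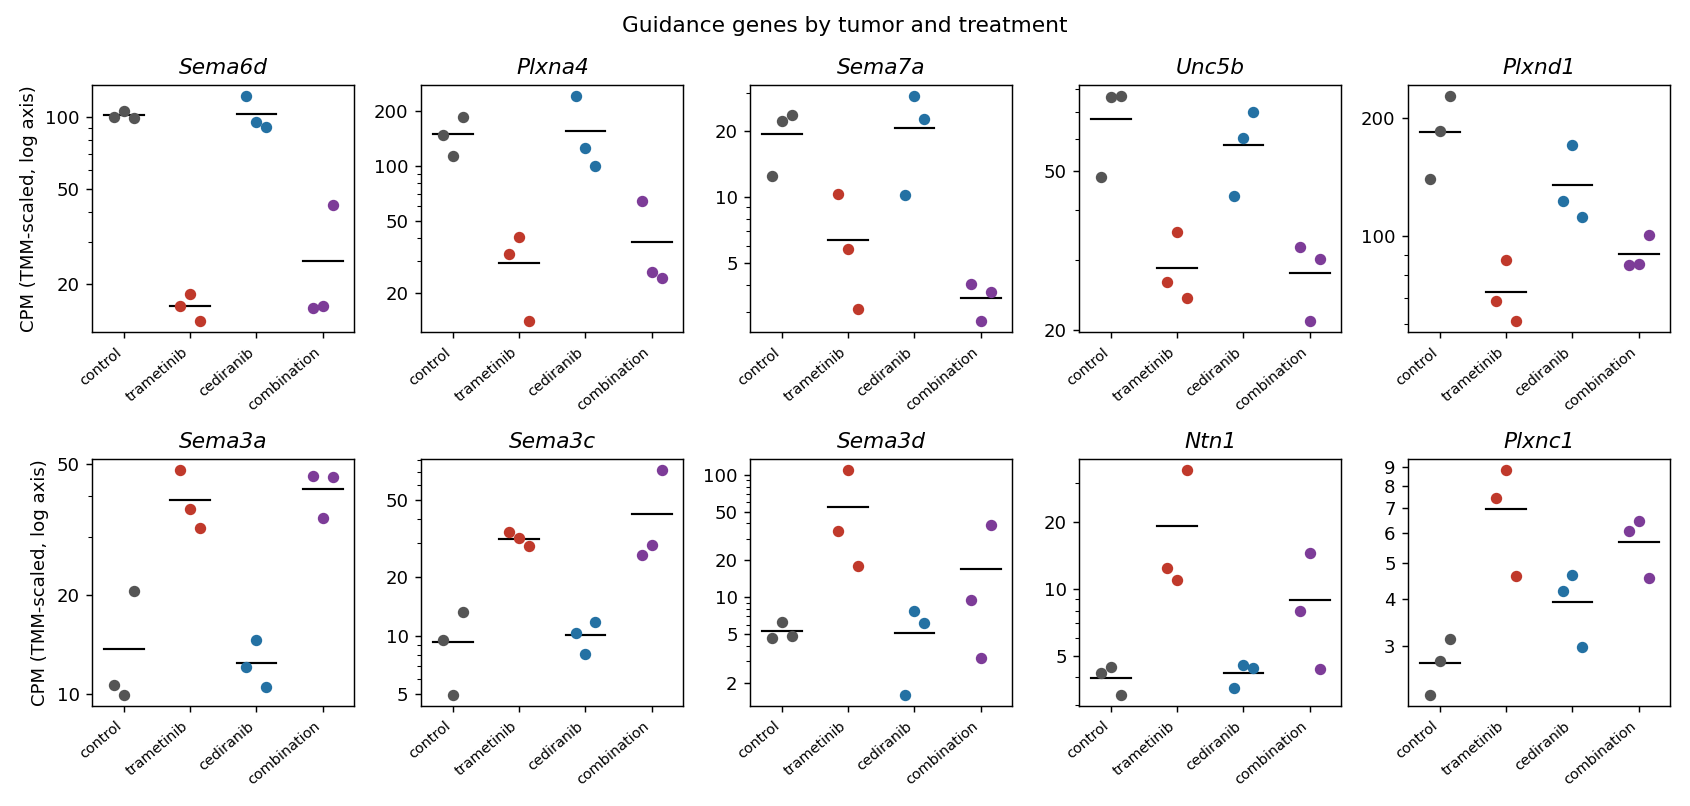
CPM (log axis, scaled with TMM factors) of 10 guidance genes in each of the 12 tumors. Points are single tumors and bars are the means of the 3 tumors of a group. For Sema6d, Plxna4, Unc5b, Plxnd1, Sema3a and Sema3c the 6 tumors given trametinib, alone or in the combination, do not overlap with the 6 others, whereas Sema3d and Ntn1 spread widely after the combination.

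A further 7 genes passed the FDR but not the minimum fold for trametinib against control, Sema3a among them. The lower ones held 3 receptors of endothelium. Plxnd1 was at 140, 185 and 227 CPM in control and at 68.7, 87.3 and 60.9 CPM after trametinib (log2 fold change -1.35 ± 0.21, edgeR FDR 0.0029). Unc5b was at 48.2, 76.6 and 76.9 CPM in control and at 26.4, 35.3 and 24.0 CPM after trametinib (log2 fold change -1.24 ± 0.25, edgeR FDR 0.0115, or 0.052 without trametinib tumor 3). Epha2 was at 118, 122 and 138 CPM in control and at 73.8, 42.1 and 50.1 CPM after trametinib (log2 fold change -1.18 ± 0.22, edgeR FDR 0.00819). In none of these 3 did the groups overlap. Sema4c, a transmembrane class 4 semaphorin, was lower as well, and Plxnc1, the receptor of Sema7A, and Ephb3 were higher, with log2 fold changes of -0.82 ± 0.18, 1.36 ± 0.29 and 1.29 ± 0.33 (edgeR FDR 0.0205, 0.0171 and 0.0378). These last 3 genes were singled out after their values were seen, and each lost the FDR when single tumors were left out, with values up to 0.0822, 0.0661 and 0.136.

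Endothelial markers moved beside these receptors. The 10 markers summed to 189 to 412 CPM in control tumors and to 45.2 to 107 CPM after trametinib, and 4 of 8 tested markers were called lower. The 1 marker at 0 in all trametinib tumors, Emcn, was not above 0.303 CPM in control, near the level that a count of 0 allows. SVR cells are themselves endothelial, so these markers do not separate tumor cells from host vessels, and their part in the lower Plxnd1, Unc5b and Epha2 was not tested. Robo4, the member most restricted to endothelium, was at 1.70, 2.13 and 7.58 CPM in control and 1.82, 1.51 and 2.01 CPM after trametinib, so that these groups overlapped (log2 fold change -1.08 ± 0.64, edgeR FDR 0.379).

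Promoter sequences are given for 4 genes that stand for the main patterns, Sema6d and Epha2, which were lower with trametinib, Sema3c, which was higher with it, and Epha1, which was higher in the combination tumors. They are the 250 bases before the RefSeq start (GRCm38.p6), written 5′ to 3′ on the strand of the gene, and capitals mark a motif found by a search for 5 motifs. The windows are chr2:124089719-124089968 (plus strand) for Sema6d, the first of 2 starts, chr4:141300971-141301220 (plus) for Epha2, chr5:17574566-17574815 (plus) for Sema3c and chr6:42373269-42373518 (minus) for Epha1.
Sema6d: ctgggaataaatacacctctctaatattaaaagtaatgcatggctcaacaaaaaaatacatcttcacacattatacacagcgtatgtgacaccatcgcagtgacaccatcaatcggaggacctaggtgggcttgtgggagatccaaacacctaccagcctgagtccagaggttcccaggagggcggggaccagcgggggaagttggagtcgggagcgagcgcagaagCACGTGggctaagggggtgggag
Epha2: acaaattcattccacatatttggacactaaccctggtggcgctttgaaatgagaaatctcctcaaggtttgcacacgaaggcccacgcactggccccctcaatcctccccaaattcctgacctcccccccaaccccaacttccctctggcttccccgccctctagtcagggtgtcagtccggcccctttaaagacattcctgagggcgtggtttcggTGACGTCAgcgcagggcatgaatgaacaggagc
Sema3c: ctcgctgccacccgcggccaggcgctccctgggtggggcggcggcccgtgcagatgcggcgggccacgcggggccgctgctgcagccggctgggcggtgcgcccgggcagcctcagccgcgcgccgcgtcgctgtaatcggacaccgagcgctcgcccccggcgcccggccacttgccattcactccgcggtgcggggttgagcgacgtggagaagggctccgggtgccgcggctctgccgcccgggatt
Epha1: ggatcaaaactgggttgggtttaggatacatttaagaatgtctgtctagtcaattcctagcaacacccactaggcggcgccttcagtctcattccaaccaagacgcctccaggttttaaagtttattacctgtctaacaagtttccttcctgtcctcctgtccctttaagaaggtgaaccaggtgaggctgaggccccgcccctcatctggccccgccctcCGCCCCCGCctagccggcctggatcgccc

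The Sema6d window holds an E-box, a site of bHLH factors, 23 bases before the start, that of Epha2 a cAMP response element 33 bases before it, and that of Epha1 an EGR motif on the opposite strand 29 bases before it. The Sema3c window, of 78.4% G and C, holds none of the 5. Both strands were searched in 72 RefSeq promoters of 56 of the 66 genes and in all 32851 promoters of the table. AP-1 (TGANTCA) was found in 3 of the 72 promoters and in 6.75% of all, the ETS motif CCGGAAG in 2 and in 6.91%, the cAMP response element TGACGTCA in 1 and in 1.55%, and the E-box CACGTG in 4 and in 6.02%. The EGR motif GCGNGGGCG was found in 12 of the 72 (16.7%) and in 4.7% of all promoters, and the median share of G and C was 64.2% in the 72 promoters and 52.4% in all. A match describes these letters and not a bound site.

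The comparison of combination with cediranib asks what trametinib did on top of cediranib, and it shares no library with trametinib against control. Again 5 of 51 genes were called (9.8%), against 2.45% of all genes. Sema3a and Sema3c were higher (2 calls, against 1.29% of all genes), and Sema6d, Plxna4 and Sema7a were lower (3 calls, against 1.16%). Log2 fold changes were 1.76 ± 0.27 for Sema3a, 2.07 ± 0.40 for Sema3c, -2.03 ± 0.32 for Sema6d and -2.04 ± 0.47 for Plxna4 (edgeR FDR 0.00428, 0.0108, 0.00427 and 0.0239). At the FDR alone Epha2 (-0.88 ± 0.22) and Unc5b (-1.06 ± 0.25) also passed, which makes 7 of 51 (13.7%) against 7.68% of all genes.

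Sema7a, a GPI-anchored semaphorin that binds Plexin-C1 and integrins, was at 12.5, 22.3 and 23.6 CPM in control, 10.3, 5.82 and 3.10 CPM after trametinib, 10.3, 28.9 and 22.8 CPM after cediranib and 4.04, 2.72 and 3.71 CPM after the combination. The combination tumors were all below every control and cediranib tumor, and close to each other. The log2 fold change was -2.56 ± 0.47 against cediranib and -2.48 ± 0.47 against control (edgeR FDR 0.00876 and 0.00888). For trametinib alone against control it was -1.6 ± 0.45, with an edgeR FDR of 0.0567. Its receptor Plxnc1 stood at 2.21, 2.74 and 3.13 CPM in control, 7.44, 8.85 and 4.60 CPM after trametinib and 6.06, 6.45 and 4.55 CPM after the combination, and its log2 fold change of 1.08 ± 0.29 for the combination against control passed the FDR (0.0385 by edgeR, and up to 0.106 when single tumors were left out).

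Calls against cediranib were lost without single tumors for Plxna4 and Sema3c. Plxna4 had an edgeR FDR of 0.0853, 0.0861 and 0.0849 without cediranib tumor 1 or combination tumor 2 or 3, and Sema3c a log2 fold change of 1.46 without combination tumor 3. Epha2 and Unc5b rose to edgeR FDRs of up to 0.104 (without combination tumor 2) and 0.0882 (without combination tumor 2). Sema6d, Sema3a and Sema7a kept their calls whichever tumor was left out.

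Set side by side, both comparisons of trametinib gave the same sign in 41 of 51 genes (80.4%), against 66.9% of all genes tested. The FDR was passed in both by 6 genes (11.8% of the 51), Sema6d, Plxna4, Epha2 and Unc5b lower and Sema3a and Sema3c higher, against 3.3% of all genes. Groups did not overlap in either comparison, in the same direction, for 10 of the 51 (19.6%, 3 higher and 7 lower), against 10.9% of all genes. No guidance gene moved in opposite directions without overlap, near the share of all genes, of which 63 of 12897 did. Pearson's r of the log2 fold changes was 0.667 across the 51 genes and 0.442 across all genes, which share libraries and are not independent replicates.

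**Figure D3:**
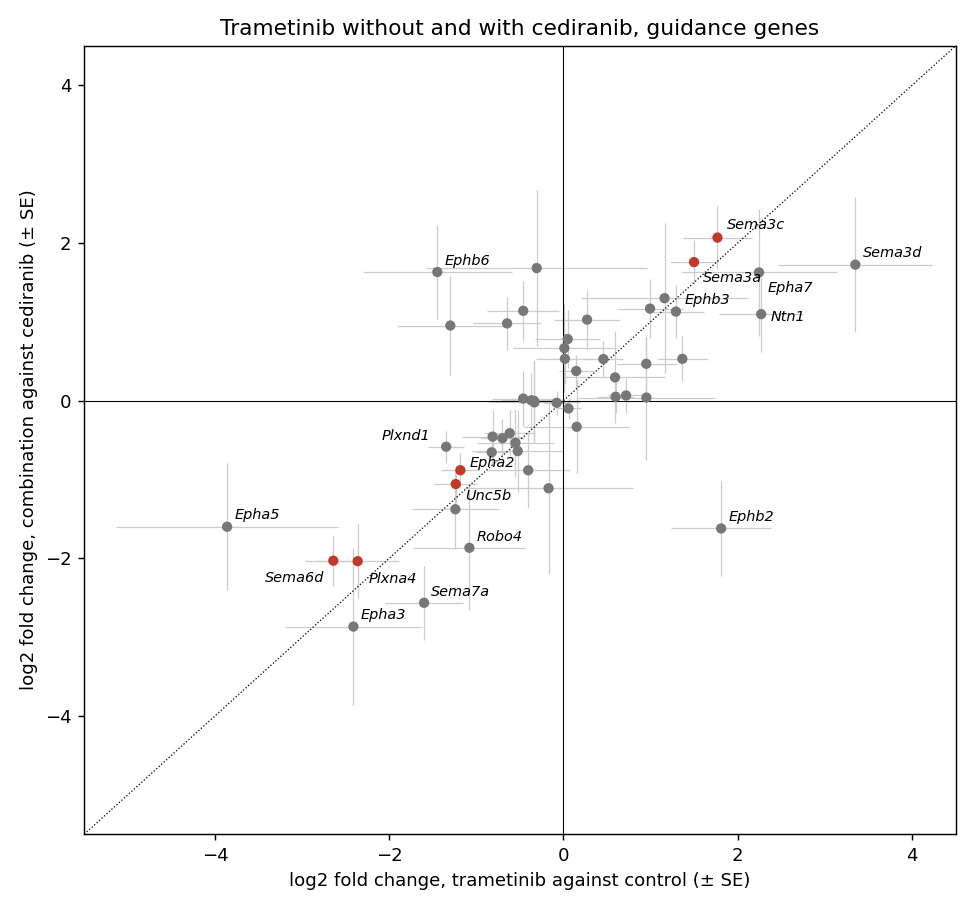
Log2 fold changes of the 51 tested guidance genes for trametinib against control (horizontal) and for combination against cediranib (vertical), with bars of 1 SE. Red points passed an FDR of 0.05 in both, and the dotted line marks equal changes. Sema6d, Plxna4, Epha2 and Unc5b lie low on both axes and Sema3a and Sema3c high, whereas Ephb2 (1.81 and -1.62) and Ephb6 (-1.45 and 1.63) differ in sign.

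The combination against control gave the longest list. Here 12 of 51 genes were called (23.5%), against 3.61% of all genes, and 16 (31.4%) passed the FDR alone, against 9.98%. The 6 higher calls (against 1.91% of all genes) were the receptors Epha1, Epha7 and Ephb6, the ephrin Efna3 and the semaphorins Sema3a and Sema3c. The 6 lower calls (against 1.71%) were Sema6d, Sema7a, Plxna4, Epha3, Robo4 and Slit3. The median log2 fold change over the 51 genes was 0.01. Sema6d (-2.01 ± 0.32), Plxna4 (-1.97 ± 0.47), Sema3a (1.62 ± 0.27) and Sema3c (2.19 ± 0.40) passed with edgeR FDRs of 0.00404, 0.023, 0.00596 and 0.00781. This comparison shares its control tumors with that of trametinib alone and its combination tumors with that against cediranib, so these values are not independent of those above.

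Epha1, a receptor known from epithelia, was at 2.47, 2.03 and 2.53 CPM in control, 1.36, 2.09 and 1.09 CPM after trametinib, 5.99, 2.65 and 6.70 CPM after cediranib and 8.28, 8.72 and 13.3 CPM after the combination. The 3 combination tumors were the highest of the 12. The log2 fold change was 2.10 ± 0.36 against control and 2.75 ± 0.38 against trametinib (edgeR FDR 0.00624 and 0.0196). Exons of Epha1 share 236 bases with Zyx on the opposite strand.

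Ephb6, a member without kinase activity, was at 1.36, 0.304 and 0.505 CPM in control, 0.182, 0.698 and 0 CPM after trametinib, 1.6, 1.99 and 2.87 CPM after cediranib and 3.94, 8.90 and 7.24 CPM after the combination. The combination libraries held 215 counts together, the controls 24 and the trametinib libraries 8, so that the ratio of scaled counts was 8.91 (exact 95% counting interval 5.83 to 14.2) against control and 26.8 (13.3 to 62.8) against trametinib. The log2 fold changes were 3.15 ± 0.67 and 4.60 ± 0.77 (edgeR FDR 0.0134 and 0.0249). Efna3, a GPI-anchored ephrin, was at 2.30, 2.13 and 1.41 CPM in control, 1.09, 2.33 and 0.921 CPM after trametinib, 2.30, 1.89 and 4.31 CPM after cediranib and 6.46, 5.72 and 6.59 CPM after the combination. Its log2 fold changes were 1.67 ± 0.39 against control and 2.13 ± 0.40 against trametinib (edgeR FDR 0.0206 and 0.037). Epha7 was at 2.04, 0.507 and 0.202 CPM in control, 0.999, 6.40 and 6.28 CPM after trametinib, 0.400, 4.73 and 2.68 CPM after cediranib and 5.05, 8.35 and 10.9 CPM after the combination (log2 fold change against control 3.08 ± 0.89, edgeR FDR 0.0483).

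Epidermal markers were also high in the combination tumors. Their sum was 346 to 520 CPM in the combination tumors, with 0 of 21 markers at 0 in all 3, and 44.8 to 68.2 CPM in the trametinib tumors, where 8 markers were at 0 in all 3. Of 16 tested markers 7 were called higher against control and 6 against trametinib. In cediranib tumors 1 and 3, with marker sums of 288 and 263 CPM, Epha1 was at 5.99 and 6.70 CPM, and in cediranib tumor 2, with 83.1 CPM, it was at 2.65 CPM. Epha7 was at 0.999, 6.40 and 6.28 CPM in trametinib tumors 1, 2 and 3, with sums of 68.2, 44.8 and 47.2 CPM. It was at 0.400, 4.73 and 2.68 CPM in cediranib tumors 1, 2 and 3. Efna3 was at 2.30, 1.89 and 4.31 CPM in these cediranib tumors. In control tumor 1, which had the highest marker sum of the controls (99.9 CPM), Efna3 was at 2.30 CPM. The part of epidermis in these levels was not tested. With the mean log2 level of the tested epidermal markers added to the edgeR model, 0 of the 51 genes were called for the combination against control, and 0 against trametinib. How many of all genes were called in that model is not given here, so these counts are not read as a result about guidance genes. In that model the log2 fold changes against control were 1.13 for Epha1, 1.03 for Efna3, -1.29 for Robo4 and -0.38 for Slit3. They were 2.45 for Ephb6, 3.58 for Epha7 and -3.29 for Epha3, with wider SEs of 0.952, 1.28 and 1.4, and Ephb6 stood at 3.48 against trametinib. Those of Sema6d, Plxna4 and Sema3a were -2.14, -2.16 and 2.1 with the term and -2.01, -1.97 and 1.62 without it, and their calls were lost as well. Since every combination tumor had a higher marker sum than every other tumor, the share of epidermis and the combination cannot be told apart here. With the same term 5 of the 51 genes were called against cediranib, Sema3a, Sema3c, Sema6d, Plxna4 and Sema7a, again without a share of all genes to set beside them.

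**Figure D4:**
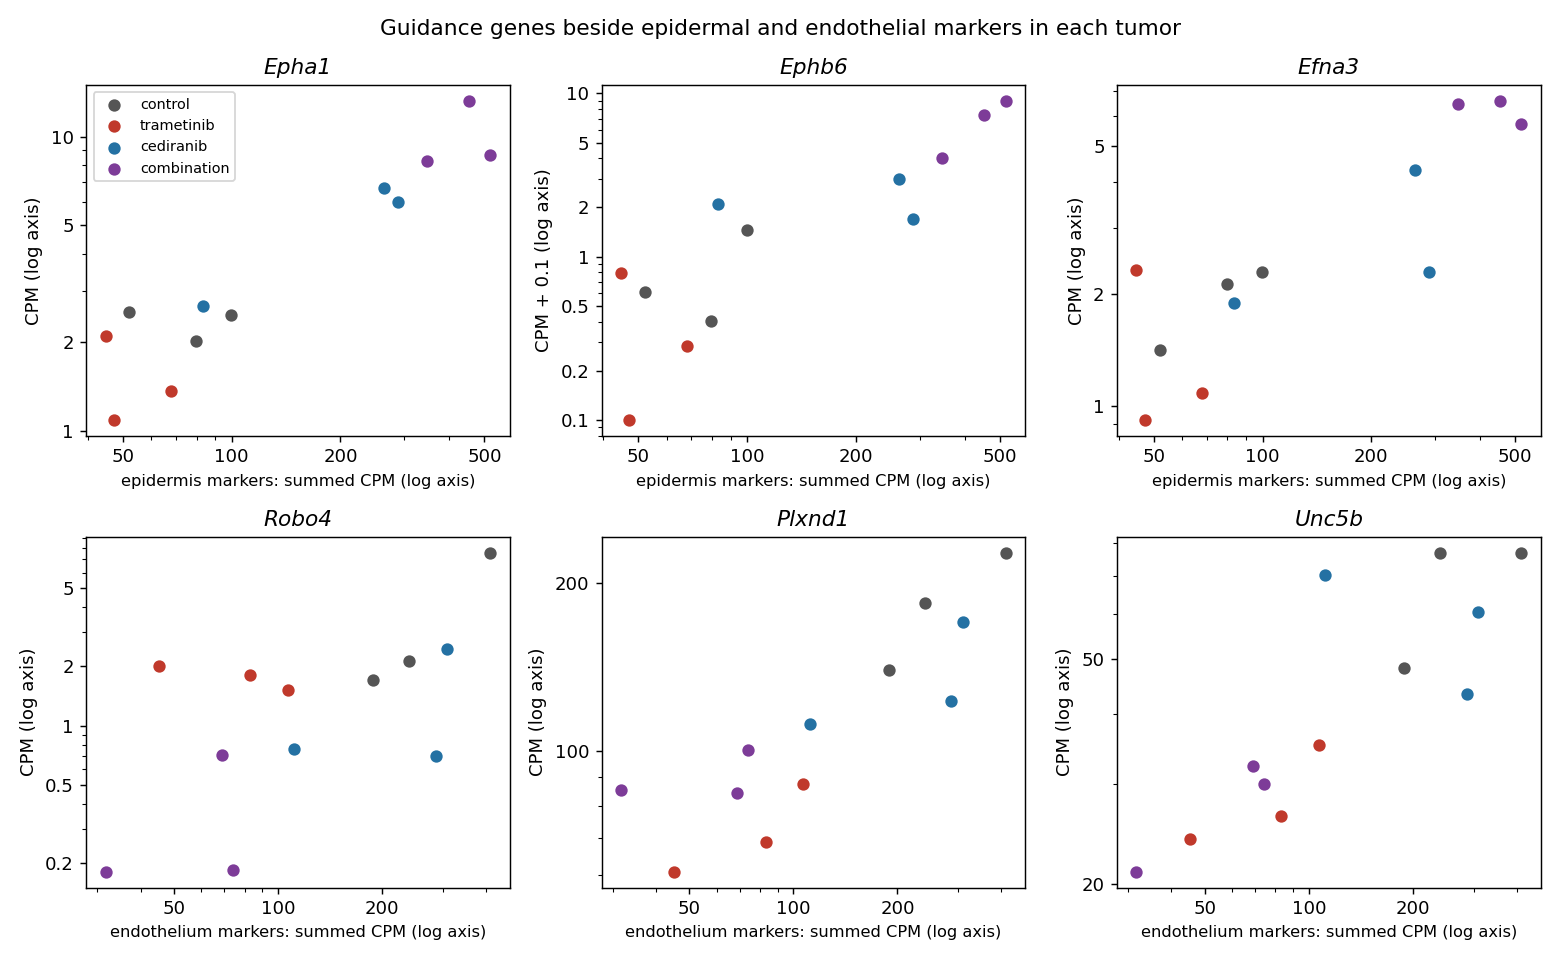
CPM of 6 guidance genes (vertical, log axis, with 0.1 added for Ephb6) against the summed CPM of epidermal markers (upper row) or endothelial markers (lower row) in each of the 12 tumors. Epha1, Ephb6 and Efna3 are highest in the 3 combination tumors, which have the highest epidermal sums, and Plxnd1 and Unc5b are low in the 6 tumors given trametinib, which have the lowest endothelial sums.

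Among the lower calls, Epha3, a receptor of A-class ephrins found in stromal cells, was at 1.70, 7.20 and 4.55 CPM in control, 0.182, 2.21 and 0.251 CPM after trametinib, 1.2, 1.61 and 0.861 CPM after cediranib and 0.101, 0.0908 and 0.278 CPM after the combination. The combination tumors held 5 counts together and the controls 136, a ratio of scaled counts of 27.4 (exact 95% counting interval 11.4 to 85.6), with a fitted log2 fold change of -4.72 ± 0.96 (edgeR FDR 0.0117). Robo4 was at 0.707, 0.182 and 0.186 CPM after the combination and 0.699, 2.46 and 0.766 CPM after cediranib. Its 11 counts in the combination tumors stand against 116 in control, a ratio of 10.6 (5.71 to 21.8), with a log2 fold change of -3.39 ± 0.76 (edgeR FDR 0.0186). Slit3, a secreted ligand of Robos, was at 51.4, 89.1 and 165 CPM in control, 61.6, 42.8 and 25.0 CPM after trametinib, 54.6, 115 and 38.7 CPM after cediranib and 33.0, 14.9 and 32.2 CPM after the combination (log2 fold change against control -1.93 ± 0.51, edgeR FDR 0.036).

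Endothelial markers summed to 31.7 to 74.0 CPM in the combination tumors, with 5 of 8 tested markers called lower against control, and their part in the lower Robo4 was not tested. Macrophage markers were lower in 7 of 7 (median log2 fold change -1.28, 3 at the FDR). Pericyte markers were lower in 5 of 6 (median -1.7), with 2 called lower and 1 higher. The part of these cells in the lower Epha3 and Slit3 was not tested. Unc5b (-1.27 ± 0.25), Plxnd1 (-1.03 ± 0.21) and Sema4c (-0.82 ± 0.18) were lower against control at the FDR alone (0.00977, 0.0113 and 0.018 by edgeR). When single tumors were left out, the number of guidance genes called for the combination against control lay between 6 and 12, with 7 without control tumor 2, 6 without control tumor 3 and 7 without combination tumor 3. Over all genes tested the number lay between 248 and 569, against 466 with all tumors. Epha1, Epha3, Sema3c, Sema6d and Sema7a kept their calls throughout. Robo4 was lost without control tumor 3 (log2 fold change -2.40, edgeR FDR 0.0808) or combination tumor 2 or 3 (0.0684 and 0.0672), and Plxna4 without control tumor 3 or combination tumor 2 or 3 (0.0798, 0.0803 and 0.0791). Ephb6 was lost without control tumor 2 or 3 (0.0527 and 0.059), and Sema3a fell below the minimum fold without control tumor 1 or 2 (1.46 and 1.43). Slit3, Epha7 and Efna3 were each lost without 4 or 5 of the 6 tumors, with edgeR FDRs of up to 0.143, 0.149 and 0.0859. With the replicate numbers of the labels as a block, Epha7 and Slit3 did not pass (edgeR FDR 0.0815 and 0.0624).

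**Figure D5:**
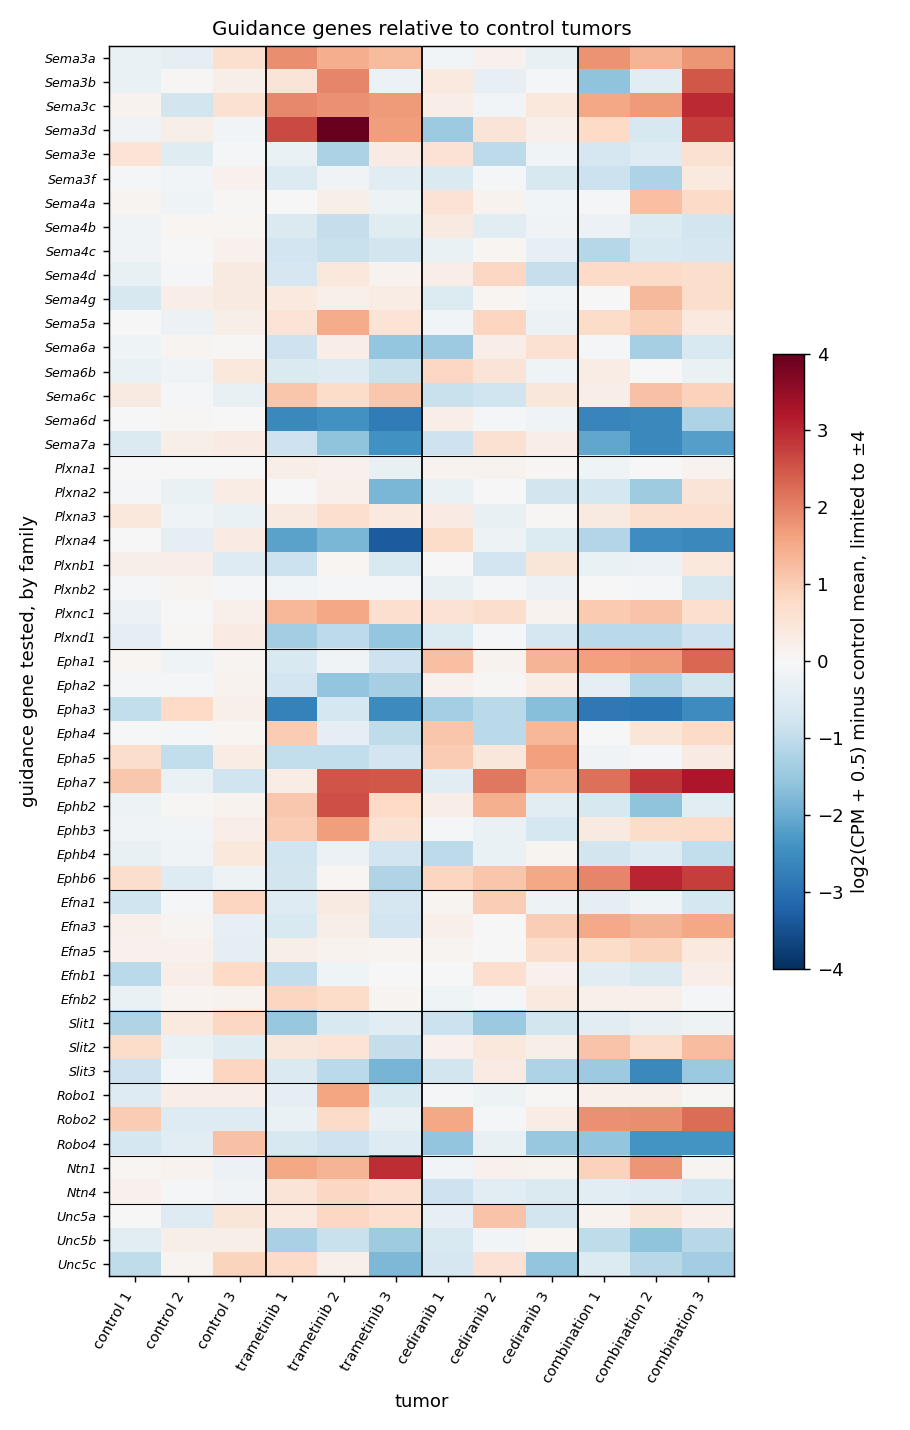
Heat map of log2(CPM + 0.5) of the 51 tested guidance genes (rows, by family) in the 12 tumors (columns), relative to the mean of the 3 control tumors and limited to ±4. Sema6d, Sema7a and Plxna4 are blue in the trametinib and combination columns, Sema3a and Sema3c are red there, and Epha1, Ephb6 and Efna3 are reddest in the 3 combination columns.

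Cediranib alone left this set without a call. None of the 51 genes passed for cediranib against control (0 called, against 0% of all genes tested), and the smallest edgeR FDR among them was 0.999. At an unadjusted p under 0.05 there were 6 of the 51 and 4.32% of all genes, and DESeq2 called 0 of the 51 as well. Sema6d (log2 fold change 0.02 ± 0.30), Plxna4 (0.07 ± 0.45), Sema3a (-0.14 ± 0.27) and Sema3c (0.12 ± 0.40) were within 1 SE of 0. Plxnd1 was at 123, 170 and 112 CPM after cediranib, overlapping with the controls (-0.44 ± 0.20).

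The combination stood above trametinib in 2 Eph receptors and 1 ephrin. Epidermal markers were higher in the same comparison, and the share of epidermis and the combination cannot be told apart. For the combination against trametinib 3 of 51 genes were called (5.88%), against 0.675% of all genes, and all 3 were higher (Epha1, Ephb6 and Efna3, against 0.535% of all genes called higher). None was called lower, against 0.14% of all genes, and 4 of 51 passed the FDR alone, against 0.969%. The fourth was Ntn4, a basement membrane netrin, at 7.08, 8.85 and 7.95 CPM after trametinib and 3.43, 3.18 and 2.78 CPM after the combination (log2 fold change -1.34 ± 0.21, edgeR FDR 0.0226). Calls in this comparison depended on single tumors over the whole table, where 87 genes were called with all 6 tumors and 0 to 24 when 1 was left out. No guidance gene was called without any 1 of the trametinib tumors or without combination tumor 2 or 3, and 2 were called without combination tumor 1, and the largest edgeR FDR was 0.109 for Efna3, 0.0643 for Epha1, 0.0881 for Ephb6 and 0.0801 for Ntn4. Ntn4 was at 5.45, 4.66 and 4.34 CPM in control and 2.5, 3.40 and 3.06 CPM after cediranib, and this pair of groups, which shares no tumor with the former, did not overlap either (-0.69 ± 0.21, edgeR FDR 0.999).

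The interaction of the drugs, the difference between the effect of trametinib with and without cediranib, gave no call (0 of 51 and 0% of all genes by edgeR). At an unadjusted p under 0.05 there were 7 of the 51 and 7.05% of all genes. DESeq2 called 1 of the 51, Ephb2, which is named here after its values were seen. Ephb2, a receptor of B-class ephrins, was at 3.75, 4.56 and 4.85 CPM in control, 9.80, 28.7 and 7.87 CPM after trametinib, 5.40, 12.4 and 3.06 CPM after cediranib and 2.63, 1.09 and 3.06 CPM after the combination. It was higher than control in all 3 trametinib tumors and lower than trametinib in all 3 combination tumors, with log2 fold changes of 1.81 ± 0.57 and -2.77 ± 0.61 (edgeR FDR 0.0874 and 0.0568). The interaction was -3.43 ± 0.83 with an FDR of 0.504 by edgeR and 0.0137 by DESeq2.

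Known ligand and receptor pairs of vessels were read together. Of Efnb2 and Ephb4, the arterial ligand and its venous receptor, neither passed in any comparison. Efnb2 was at 48.9 to 65.5 CPM in control and 63.4 to 107 CPM after trametinib, and Ephb4 at 29.0 to 47.6 and 20.2 to 30.3 CPM, with smallest edgeR FDRs of 0.122 and 0.115. Epha2 was lower with trametinib in both settings, whereas its ligand Efna1, at 2.47 to 8.89 CPM in control and 2.76 to 6.17 CPM after trametinib, did not pass (smallest edgeR FDR 0.302). Plxnd1 was lower after trametinib and its ligand Sema3e did not pass (6.28 to 13.3 and 3.49 to 11.4 CPM, smallest edgeR FDR 0.785).

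Among the remaining pairs, Slit2 was at 35.1 to 82.4 CPM in control and 80.8 to 118 CPM after the combination without passing (log2 fold change 0.95 ± 0.37, edgeR FDR 0.124), whereas Slit3 and Robo4 were lower, and Robo1 did not pass (0.15 ± 0.58). For Unc5b, lower in both comparisons of trametinib, the ligand Ntn1 was higher after trametinib alone, and Ntn4 had a log2 fold change of 0.72 ± 0.21 (edgeR FDR 0.0599). Plxnb1 and its ligand Sema4d passed in no comparison (smallest edgeR FDR 0.525 and 0.307). Sema3a rose with trametinib in both settings while Plxna1, which pairs with neuropilin-1 as its receptor, stayed between 148 and 216 CPM in all 12 tumors. Efna5 was at 121 to 175 CPM in control and 201 to 287 CPM after the combination, without overlap, and missed the FDR (log2 fold change 0.67 ± 0.20, edgeR FDR 0.0566).

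Of 6 tested class 3 semaphorins, 3 were higher at the FDR after trametinib (Sema3a, Sema3c and Sema3d), against 341 of 12897 genes, and 0 were lower. Their median log2 fold change was 1.33 for trametinib against control and 1.51 for combination against cediranib. Fibroblast markers were higher in the same comparisons, in 6 of 6 tested markers (median 1.49, 1 at the FDR) and in 5 of 6 (median 1.11, 1 at the FDR), and their part in the class 3 semaphorins was not tested. The 7 fibroblast markers summed to 1889 to 19880 CPM in control, 6934 to 35320 CPM after trametinib, 1484 to 6263 CPM after cediranib and 1662 to 4672 CPM after the combination. These sums overlapped in both comparisons, but Col1a1 carried most of them, with 31100 of 35320 CPM in trametinib tumor 2 and 16130 of 19880 CPM in control tumor 3. Of the 6 tested markers, 2 were higher without overlap in each comparison, against 1659 and 1814 of 12897 genes. Pdgfra was at 20.2 to 39.9 CPM in the 6 tumors given trametinib and at 7.99 to 17.7 CPM in the other 6. The 6 tested EphA receptors had medians of -0.92 and -0.61 in the same comparisons, with 1 of them, Epha2, lower at the FDR in each. Over the 27 tested ligands the median was 0.01 for trametinib against control, and over the 24 tested receptors it was -0.32. These are counts of a list chosen by name, and the difference between families was not tested.

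Other genes of the pathway were read from a list of 28 co-receptors and modulators and a list of 59 cytoplasmic effectors. Of 23 tested co-receptors, 1 was called higher and 1 lower for trametinib against control (8.7%, against 2.4% of all genes). Rgma, a repulsive ligand of neogenin, was at 12.9, 3.65 and 5.56 CPM in control, 53.7, 43.4 and 102 CPM after trametinib, 11.5, 5.67 and 9.19 CPM after cediranib and 40.3, 47.2 and 111 CPM after the combination (log2 fold change 3.15 ± 0.54 for trametinib against control, edgeR FDR 0.00491). Draxin, a secreted ligand of Dcc, was at 6.56, 12.5 and 8.18 CPM in control and 1.54, 1.51 and 2.85 CPM after trametinib (-2.18 ± 0.33, edgeR FDR 0.00248). Nrp2, a neuropilin that serves as co-receptor of Sema3C, passed the FDR alone (0.86 ± 0.16, edgeR FDR 0.00841), at 199 to 254 CPM in control and 394 to 451 CPM after trametinib. Against cediranib, Rgma (2.91 ± 0.53) and Flrt2, a ligand of Unc5 receptors (1.504 ± 0.36), were called higher in the combination and Draxin lower (-1.94 ± 0.32), which makes 13% of the list against 2.45% of all genes. For the combination against control there were 1 higher and 1 lower call, again Rgma and Draxin (8.7%, against 3.61% of all genes), and against trametinib 0 in either direction (against 0.675%), with Met lower at the FDR alone (-0.93 ± 0.19).

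Of 56 tested effectors, 1 was called higher and 1 lower for trametinib against control (3.57%, near the 2.4% of all genes), and 4 passed the FDR in each direction (14.3%, against 6.12%). For the combination the share called was 3.57% as well, both against control (3.61% of all genes) and against cediranib (2.45%). Ablim1, an actin-binding protein, was at 21.9, 19.9 and 19.4 CPM in control and 63.5, 48.9 and 109 CPM after trametinib (1.86 ± 0.26, edgeR FDR 0.00154). Crmp1, of the collapsin response mediators that act below Sema3A, was at 67.5, 99.5 and 124 CPM in control, 41.7, 18.9 and 21.1 CPM after trametinib and 6.77, 15.1 and 11.6 CPM after the combination, with log2 fold changes of -1.83 ± 0.35 and -3.11 ± 0.37 (edgeR FDR 0.00921 and 0.000833). Tiam1, an activator of Rac, was the effector with the smallest FDR for trametinib against control (-1.47 ± 0.16, edgeR FDR 0.000388). Ablim3 was called higher for the combination against control and against cediranib (1.66 ± 0.42 and 1.6 ± 0.42). Cediranib alone gave 0 calls in both lists. The medians of the co-receptors and the effectors for trametinib against control were 0.19 and 0.02, near that of all genes tested.

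The 15 genes that were not tested were Sema3g, Sema4f, Sema5b, Plxnb3, Epha6, Epha8, Epha10, Ephb1, Efna2, Efna4, Efnb3, Robo3, Ntn5, Dcc and Unc5d. Their total over all 12 libraries ran from 1 count for Epha10 to 71 for Efnb3. Dcc, the attractive netrin receptor of neurons, was listed at 0 in 8 tumors and reached 3.63 CPM in combination tumor 2, with 1.42 CPM in cediranib tumor 2 and 0.815 CPM in trametinib tumor 2. Their levels did not allow a comparison at this depth. Of the 66 genes, 16 share exon bases with another annotated gene, mostly on the opposite strand, and reads there may belong to either.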

How the data were processed

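RNA of 12 SVR tumors, 3 per treatment, was sequenced after exome capture. Per the labels, the authors used bcl2fastq 1.8.4, aligned reads to GRCm38 with STAR 2.7.1a in 2-pass mode and counted them with featureCounts 1.6.0. The deposited values are raw counts per gene, without normalization. The sources used here give neither the annotation release nor the strand setting nor the treatment of multiply mapped reads. The deposited length column equals the union of exons in GENCODE M21 for 52611 of 54079 matched identifiers and was used for CPM per kilobase.

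Samples were grouped by their titles, and 0 columns of values were left over. Counts were scaled with TMM, filtered with filterByExpr (minimum count 10, minimum total 15) and fitted with the quasi-likelihood test of edgeR 4.0.16 in R 4.3.3, all 12 libraries in 1 fit, with 6 contrasts and Benjamini-Hochberg adjustment over 12897 genes. The study names edgeR and the threshold used here (FDR 0.05, absolute log2 fold change 1.5). SEs were taken as the size of the log2 fold change over the square root of the F statistic. CPM were computed from the scaled library sizes. The script was tested on simulated data. Alternatives were DESeq2 1.42.0, other scaling, no filter, only the groups compared, an epidermal score, a replicate block and leaving out single tumors. 0 pairs of libraries were identical.

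Guidance genes, pathway lists, marker lists and pairs were chosen with earlier results of these data known. Genes named singly were those called in any contrast, Sema6d, known vessel pairs and the most abundant member of each family. Others were named after their values were seen.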

Additional observations from a re-analysis of the deposited data

How the results depend on the processing

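For trametinib against control, 5 guidance genes were called, and 10 without a filter on low counts, 8 with DESeq2, 12 without a minimum fold and 3 to 7 when single tumors were left out (3 without control tumor 2). With the epidermal score in the model Sema3d was lost, and Slit3, Plxnd1 and Sema7a were called as well. For cediranib against control 0 became 2 without a filter (Epha3 and Dcc) and stayed at 0 to 0 without single tumors. For the combination against control 12 became 0 with an epidermal score in the model and 6 to 12 without single tumors. For the combination against trametinib 3 became 9 without a filter, 0 with the epidermal score and 0 to 2 without single tumors. For the combination against cediranib 5 became 11 without a filter and 3 to 7 without single tumors (3 without combination tumor 3). For the interaction 0 became 3 without a filter (Ephb2, Ephb6 and Sema3d), 1 with DESeq2 and 0 to 0 without single tumors. Over all genes tested, 310 were called for trametinib against control, and 235 to 288 without single tumors. These numbers were 0 and 0 to 7 for cediranib, and 466 and 248 to 569 for the combination against control. They were 87 and 0 to 24 against trametinib, 316 and 193 to 281 against cediranib, and 0 and 0 to 1 for the interaction. For no filter, DESeq2 and the epidermal score no such number is given here, so those counts are not read as a trait of this set. Without the filter FDRs were far smaller, 3.09e-42 for Sema6d with trametinib, and the cause was not tested. The epidermal score and the combination cannot be told apart in these tumors. Of 39 pairs of gene and contrast that passed the FDR, 8 of 6 genes (Sema6d, Plxna4, Sema7a, Sema3a, Epha2 and Plxnd1) held under all alternatives, 25 were lost with the epidermal score, 5 with the replicate block, and 0 changed direction. Scaling by library totals moved the median of all genes by 0.13 in the combination against trametinib, 0.128 against control and 0.114 against cediranib. It added the calls of Sema3a for trametinib against control (1.51, FDR 0.00553) and Ephb2 for the combination against trametinib (-2.59, FDR 0.0467), and Epha2 against cediranib no longer passed the FDR (0.0594).

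With the replicate number as a block, 6 guidance genes were called for trametinib, 0 for cediranib and 10 for the combination (each against control), 2 and 5 for the combination against trametinib and against cediranib, and 0 for the interaction. How many of all genes were called in that fit is not given here. The block lost Sema3d and Ephb3 for trametinib against control, Epha7 and Slit3 for the combination against control, and Efna3 for the combination against trametinib. The numbers did not pair the tumors: of 18 pairs with equal numbers, r of their deviations ran from -0.219 to 0.356 and 3 were over 0.1, and 4 of 12 libraries were nearest to one of their own number. Ratios of genes near 1 CPM rest on few counts, with wide counting intervals.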
